A study of Mus musculus with 90 samples.

Results

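To follow what a raised level of corticosterone does to the liver, transcripts were measured by bulk RNA-seq in wildtype mice given corticosterone (CORT, n = 3) and in their night-restricted fed controls (ctrl., n = 3), all labelled zeitgeber time 12 (ZT12), when the lights go off. All 6 samples of the count table for corticosterone were taken, out of 90 samples in the series, with groups from the sample labels. The animals were adult male C57BL/6J mice of WT genotype on a chow diet, and every liver came from feeding restricted to the night. According to the study's methods, corticosterone was injected intraperitoneally in a mixture of ethanol and Miglyol oil shortly before the lights went off, daily for a week, and vehicle mice received that mixture alone. The labels call the groups only corticosterone supplementation and night-restricted feeding, and do not say whether the ctrl. mice were injected with vehicle. Hormone therefore cannot be told apart from injection and vehicle. The series also holds a diet comparison and a time series, from which a pair of comparisons at ZT12 is set beside CORT. These are WT mice on caloric restriction (cal. res., n = 3) against control-fed WT mice (n = 3), and control-fed GR LKO mice (GRfl/fl x Alb-Cre, n = 4) against GRfl/fl mice (called WT here, n = 4). Alb-Cre removes the glucocorticoid receptor (GR) from hepatocytes and leaves it in the other cells of the liver. The labels do not state that each sample is a separate animal, so p-values measure the spread between samples.

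Corticosterone, the main glucocorticoid of mice, reaches the liver in a daily wave that crests around the onset of the active phase. In the absence of hormone, GR rests in the cytoplasm in a complex of Hsp90 with its co-chaperones, and with hormone it enters the nucleus and binds DNA. In hepatocytes it is known for switching on gluconeogenesis and amino acid breakdown, for acting with cytokine signals on acute phase genes and for inducing its own negative regulators.

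The ctrl. libraries held 13763568, 15114185 and 14252298 counts and the CORT libraries 13739631, 16077943 and 14610479 counts, with between 13930 and 14507 genes detected. *Alb*, which encodes albumin, took 7.88%, 7.87% and 7.84% of all counts in the ctrl. livers and 7.08%, 7.04% and 6.72% in the CORT livers. Mitochondrial transcripts took 10.4%, 10.2% and 10.5% in the ctrl. livers against 8.55%, 8.25% and 7.80% in the CORT livers. Both shares were lower in every CORT liver than in any ctrl. liver, and their part in the results was not tested. Levels are given as counts-per-million (CPM) after TMM scaling, which is meant to offset shifts in composition, and log2 fold changes are given ± SE. On the first principal component (41.7% of the variance) the ctrl. livers lay at -29.7, -32.7 and -38.6 and the CORT livers at 34.7, 35.6 and 30.6. On the second (18.4%) CORT liver 2 stood apart at -42.1, against 27.6 and 14.7 for the other CORT livers and -6.91 to 13.5 for the ctrl. livers.

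The 21 tested members of the clock list were compared with control-fed WT livers of the time series (chosen after seeing the data), as the median absolute difference in log2 CPM from the mean of each time point. Ctrl. livers 1 and 2 lay nearest to ZT16 (0.196 and 0.253, against 0.715 and 0.832 at ZT12) and ctrl. liver 3 to ZT20 (0.345, against 1.34 at ZT12). CORT livers 1 and 3 lay nearest to ZT12 (0.214 and 0.307) and CORT liver 2 to ZT16 (0.605, against 0.734 at ZT12), or to ZT12 without ZT16 liver 2 of the series. All 22 series livers lay nearest to their own time point, each left out of its own mean. Over all genes tested 20 of the 22 did, CORT liver 2 lay nearest to ZT8 and the other 5 livers to the same hours as here. Of the 515 genes called higher with CORT below, 422 (81.9%) were higher at ZT12 than at ZT16 in the series, and of the 420 called lower, 375 (89.3%) were lower, against 50% of all genes tested each way. By the study's methods food was offered from ZT12, so later hours of the series differ from ZT12 in feeding as well as in clock time. All 6 livers are labelled ZT12, and corticosterone cannot be told apart from this difference in clock state or from a difference in feeding. This limit holds for every list of genes below.

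Markers of the liver's cell types were summed per library, as CPM of the library total. The 7 hepatocyte markers, led by *Alb*, summed to 107100, 105800 and 106700 in the ctrl. livers and 100200, 97780 and 95520 in the CORT livers, a lower sum that *Alb* carried, while 1 marker passed the test as higher. The 11 markers of Kupffer cells and macrophages, led by *Clec4f*, summed to 109, 140 and 148 in the ctrl. livers and 146, 202 and 173 in the CORT livers, and 2 of them passed the test as higher. The 6 endothelial markers, led by *Eng*, summed to 118, 136 and 153 and to 91.6, 100 and 115, with 1 lower, and the 7 stellate cell and fibroblast markers, led by *Dcn*, to 131, 163 and 164 and to 118, 149 and 127, with 1 lower. Over all genes tested 4.47% were called higher and 3.64% lower, and 1 or 2 calls in lists this small do not measure a shift. The 6 erythroid markers, led by *Hbb-bs*, summed to 707, 673 and 806 in the ctrl. livers and 314, 526 and 301 in the CORT livers. None of the 5 erythroid markers tested was called by edgeR. All 5 were lower at an unadjusted p below 0.05 and DESeq2 called 4, against 1472 and 566 of all 11523 genes tested. In bulk tissue fewer cells of a type and less RNA per cell cannot be told apart. Neutrophil markers summed to at most 2.04 in the ctrl. livers and to 3.16, 4.39 and 3.57 in the CORT livers, with *Ly6g* and *Mpo* at 0 in every library. *Krt19*, on both the cholangiocyte and the mesothelial list, was at 12 in CORT liver 2 and at most 2.19 elsewhere, and made up most of the mesothelial sum of that liver (16.2, against 2.14 to 4.65), while ctrl. liver 2 and CORT liver 1 carried skeletal muscle transcripts (14.3 and 7.76, against at most 0.205 elsewhere). Lymphocyte markers summed to between 3.48 and 12.2, cholangiocyte markers to between 4.27 and 18.1 with *Epcam* at 0 and *Sox9* called lower, and exocrine pancreas markers to at most 2.06. The adipocyte list consisted almost wholly of *Car3*, which hepatocytes also express, at 3358, 2941 and 2619 against 1673, 1578 and 1225. The part of other cell types in the results below was not tested.

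To measure the response, CORT livers were tested against ctrl. livers gene by gene, and the rises reached higher folds than the falls. Of 11523 genes tested, 935 passed edgeR's quasi-likelihood test at a Benjamini-Hochberg adjusted p below 0.05 (8.11% of those tested), 515 of them higher (4.47%) and 420 lower (3.64%) in the CORT livers. At an unadjusted p below 0.05, 1525 of the 11523 genes were higher and 1472 lower. Among the same 11523 genes DESeq2 called 724 higher and 566 lower. Above a log2 fold change of 1 lay 239 rises and 178 falls, above 2 lay 75 and 42, and above 3 lay 34 and 9. The median change of the called genes was 0.91 for the rises and -0.89 for the falls, against -0.01 over all genes tested. The CORT and ctrl. livers had no overlapping values for any of the 935 called genes, nor for 3792 (32.9%) of all genes tested. The number of calls leaned on every library but CORT liver 2. Without ctrl. livers 1, 2 and 3 and CORT livers 1, 2 and 3 in turn, it was 421, 206, 438, 446, 1008 and 395. For CORT against control, higher genes then numbered 259, 135, 248, 285, 522 and 253, and for CORT against control, lower genes numbered 162, 71, 190, 161, 486 and 142. In edgeR 115 rises and 61 falls were called whichever liver was left out.

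**Figure D1:**
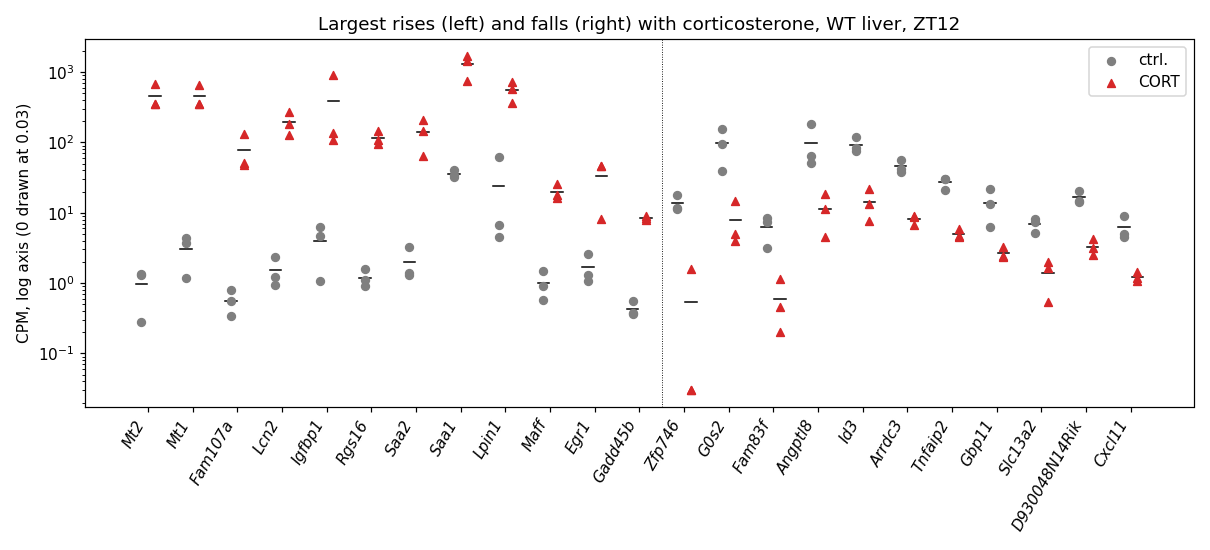
Level in every liver (CPM, log axis; 0 drawn at 0.03) of the 12 called genes with the largest rise and 11 of the 12 with the largest fall, in ctrl. livers (grey circles) and CORT livers (red triangles), with group means as bars. These genes were chosen by a rule that requires no overlap between CORT and ctrl. livers, and the CORT level of *Zfp746* is 0 in livers 1 and 3.

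The steepest rises belonged to the metallothioneins, small cysteine-rich proteins that bind zinc and copper. *Mt2* (ENSMUSG00000031762, chr8:94172664-94173568 in GRCm38) stood at 1.36, 1.31 and 0.275 CPM in the ctrl. livers and 349, 684 and 356 CPM in the CORT livers (log2 8.86 ± 0.52, adjusted p = 9.15e-04). *Mt1* (ENSMUSG00000031765, chr8:94179082-94180327) stood at 4.31, 3.73 and 1.17 CPM and 352, 654 and 346 CPM (log2 7.19 ± 0.50, adjusted p = 0.00121). Both genes stayed at or below 4.31 CPM in each ctrl. liver and at or above 346 CPM in each CORT liver, with CORT liver 2 the highest. Their calls held with any 1 liver left out, at adjusted p-values up to 0.00888 and 0.0132. Of the 11 tested members of the list of metallothioneins and zinc transporters, 4 rose (36.4%) and 1 fell (9.09%), with a median of 0.00 whose sign flipped without the most abundant genes. There were 1, 0, 1, 1, 1 and 1 falls without ctrl. livers 1 to 3 and CORT livers 1 to 3 in turn. *Slc39a14*, an importer of zinc and iron, rose from 176, 158 and 126 to 345, 513 and 401 CPM (log2 1.45 ± 0.18, adjusted p = 0.00693), and the plasma membrane importer *Slc39a1* by 0.35 ± 0.08 (log2 ± SE, adjusted p = 0.0421). *Slc30a10*, which exports manganese, fell from 32.9, 46.2 and 47.3 to 15.5, 19.8 and 21.0 CPM (log2 -1.17 ± 0.18, adjusted p = 0.0130). The call of *Slc30a10* was lost without ctrl. liver 2 (adjusted p = 0.0629) and that of *Slc39a1* without ctrl. liver 1, 2 or 3 or CORT liver 1 or 3 (up to 0.163) and without the filter on low counts.

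Beside the metallothioneins, the largest rises took in secreted proteins, signaling inhibitors and an enzyme of lipid synthesis. *Fam107a*, which encodes an actin-bundling protein induced by stress hormones, was at 0.790, 0.560 and 0.344 CPM in the ctrl. livers and 51.5, 132 and 47.0 CPM in the CORT livers (log2 7.08 ± 0.60, adjusted p = 0.00165). *Rgs16*, a GTPase-activating protein that ends signaling from G proteins, went from 1.58, 1.12 and 0.893 to 144, 108 and 94.2 CPM (log2 6.58 ± 0.26, adjusted p = 2.43e-04). *Lcn2*, the secreted siderophore-binding lipocalin, went from 0.933, 2.36 and 1.24 to 181, 271 and 128 CPM (log2 6.97 ± 0.42, adjusted p = 9.16e-04). All 3 were at or below 2.36 CPM in each ctrl. liver and far above that in each CORT liver. *Igfbp1*, a secreted binding protein for insulin-like growth factors, was at 1.08, 4.60 and 6.25 CPM and 106, 921 and 136 CPM (log2 6.60 ± 1.11, adjusted p = 0.0172), so that CORT liver 2 stood far above the others of its group. *Lpin1*, the phosphatidate phosphatase lipin, was at 62.0, 6.66 and 4.47 CPM and 365, 711 and 582 CPM (log2 4.51 ± 0.99, adjusted p = 0.0374). Here ctrl. liver 1 stood above the other ctrl. livers, and still below every CORT liver. The transcription factor gene *Maff* rose from 0.574, 1.49 and 0.893 to 17.9, 26 and 15.9 CPM (log2 4.31 ± 0.34, adjusted p = 0.00141), and *Gadd45b*, a stress sensor of the Gadd45 family, from 0.359, 0.373 and 0.550 to 8.48, 7.84 and 8.99 CPM (log2 4.28 ± 0.25, adjusted p = 9.15e-04). The immediate early gene *Egr1* rose from 1.08, 2.61 and 1.31 to 45.7, 45.4 and 8.10 CPM (log2 4.28 ± 0.72, adjusted p = 0.0172), with CORT liver 3 well below the others. The call of *Igfbp1* was lost without ctrl. liver 1, 2 or 3 (adjusted p up to 0.0844), that of *Lpin1* without ctrl. liver 2 or 3 or CORT liver 1, 2 or 3 (up to 0.118) and that of *Egr1* without ctrl. liver 1, 2 or 3 (up to 0.0703) and with limma-voom (up to 0.11 over the alternatives), and the other genes named here kept theirs.

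The largest falls were shallower and took in lipase inhibitors, chemokine and interferon genes and regulators of transcription. *Zfp746*, which encodes the zinc finger repressor PARIS, was at 11.6, 11.4 and 17.9 CPM in the ctrl. livers and 0, 1.59 and 0 CPM in the CORT livers (log2 -4.61 ± 0.92, adjusted p = 0.0276), where 3 counts amount to between 0.187 and 0.218 CPM. With 2 CORT livers at 0 the size of this fold change is loose, and it was -10.6 without CORT liver 2. *G0s2*, an inhibitor of adipose triglyceride lipase, went from 156, 39.6 and 95.8 to 4.01, 4.91 and 14.7 CPM (log2 -3.61 ± 0.65, adjusted p = 0.0200). *Angptl8*, a feeding-induced inhibitor of lipoprotein lipase activity, went from 182, 51.6 and 63.9 to 11.3, 4.45 and 18.2 CPM (log2 -3.13 ± 0.64, adjusted p = 0.0292). In all 3 the highest CORT liver stayed below the lowest ctrl. liver, although the ctrl. livers themselves differed widely for *G0s2* and *Angptl8*. *Id3*, an inhibitor of bHLH transcription factors, fell from 119, 82.6 and 76.7 to 7.57, 22.0 and 13.3 CPM (log2 -2.69 ± 0.37, adjusted p = 0.00917), and *Arrdc3*, an arrestin-like adaptor, from 55.6, 38.5 and 42.3 to 8.78, 6.71 and 8.99 CPM (log2 -2.48 ± 0.18, adjusted p = 0.00128). *Tnfaip2*, a TNF-inducible gene, fell from 29.9, 20.7 and 30.6 to 5.83, 4.58 and 4.70 CPM (log2 -2.43 ± 0.19, adjusted p = 0.00141). These 3 genes were also lower in each CORT liver than in any ctrl. liver, and their calls held with any 1 liver left out (adjusted p up to 0.0407 for *Id3*).

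The 12 largest falls also included *Fam83f* (-3.37 ± 0.61), the interferon-inducible GTPase *Gbp11* (-2.37 ± 0.45), the dicarboxylate transporter *Slc13a2* (-2.34 ± 0.44), the RIKEN gene *D930048N14Rik* (-2.32 ± 0.24) and the chemokine *Cxcl11* (-2.32 ± 0.34), in log2 fold change ± SE, with adjusted p-values of 0.0208, 0.0228, 0.0227, 0.00325 and 0.0116. Among the 12 falls the call of *Zfp746* was lost without ctrl. liver 1, 2 or 3 or CORT liver 1 or 3 (adjusted p up to 0.0975) and with DESeq2 (up to 0.151 over the alternatives), that of *G0s2* without ctrl. liver 1 or 3 or CORT liver 1 (up to 0.0649), and that of *Angptl8* without ctrl. liver 1, 2 or 3 or CORT liver 1 or 3 (up to 0.0927). The call of *Fam83f* was lost without ctrl. liver 1 or 2 or CORT liver 1 or 3 (up to 0.0845), that of *Gbp11* without ctrl. liver 2 or 3 or CORT liver 1 or 3 (up to 0.0814) and with limma-voom, and that of *Slc13a2* without ctrl. liver 1, 2 or 3 or CORT liver 3 (up to 0.0766).

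The receptor itself and the enzymes that handle its ligand showed no call in edgeR, while chaperones that hold it fell. *Nr3c1*, which encodes GR, was at 74.2, 77.5 and 69.5 CPM in the ctrl. livers and 61.7, 83.9 and 66.0 CPM in the CORT livers (log2 -0.06 ± 0.13, adjusted p = 0.808), with overlapping groups. *Hsd11b1*, which regenerates active glucocorticoid inside the cell, was at 493, 493 and 539 CPM and 483, 542 and 454 CPM (log2 -0.05 ± 0.10, adjusted p = 0.83). *Serpina6*, which encodes corticosteroid-binding globulin of the plasma, was at 216, 218 and 174 CPM and 297, 256 and 308 CPM (log2 0.50 ± 0.13, adjusted p = 0.0545), higher in each CORT liver and short of the threshold, which it passed without CORT liver 2, with DESeq2, with a minimum count of 50 and with limma on the deposited values (adjusted p 0.00397 to 0.147 over the alternatives). None of the 16 tested members of the list of receptors and steroid handling was called by edgeR (median 0.11). At an unadjusted p below 0.05, 5 were higher and 1 lower, against 1525 and 1472 of all 11523 genes tested. DESeq2 called 3 higher, against 724 of all genes. Leaving out ctrl. livers 1 to 3 and CORT livers 1 to 3 in turn gave 0, 0, 0, 0, 1 and 0 rises. Of 27 tested members of the GR chaperone complex and the heat shock response, 1 rose (3.70%) and 5 fell (18.5%; 2 and 12 with DESeq2), with a median of -0.30 against -0.01 over all genes. The list had 1, 1, 1, 1, 2 and 2 rises and 3, 1, 3, 3, 6 and 4 falls without ctrl. livers 1 to 3 and CORT livers 1 to 3 in turn. The inducible Hsp90 gene *Hsp90aa1* went from 383, 441 and 372 to 129, 144 and 203 CPM (log2 -1.33 ± 0.18, adjusted p = 0.00879), and the constitutive *Hsp90ab1* from 1069, 1135 and 1093 to 637, 794 and 712 CPM (log2 -0.62 ± 0.11, adjusted p = 0.0185). Every CORT liver lay below every ctrl. liver for both.

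Among the co-chaperones, *Fkbp4* and *Stip1* fell and *Fkbp5* rose. *Fkbp4*, the immunophilin that favors nuclear transport of GR, went from 231, 245 and 271 to 131, 159 and 151 CPM (log2 -0.76 ± 0.11, adjusted p = 0.0108), and *Stip1*, which joins Hsp70 to Hsp90, from 118, 126 and 120.2 to 65.5, 53.7 and 77.7 CPM (log2 -0.89 ± 0.14, adjusted p = 0.0130). The mitochondrial co-chaperonin *Hspe1* fell by 0.41 ± 0.08 (adjusted p = 0.0279). The list's sole rise was *Fkbp5*, the immunophilin that holds GR in its low-affinity state, which went from 52.8, 41.6 and 19.9 to 217, 294 and 198 CPM (log2 2.63 ± 0.35, adjusted p = 0.00797). *Fkbp4* and *Fkbp5*, which compete for the same complex, moved in opposite directions in each CORT liver. The calls of *Fkbp5* and *Hsp90aa1* held with any 1 liver left out. Those of *Fkbp4* and *Stip1* were lost without ctrl. liver 2 (adjusted p = 0.0565 and 0.0660), and those of *Hsp90ab1* and *Hspe1* without ctrl. liver 1, 2 or 3 or CORT liver 1 or 3 (up to 0.0847 and 0.0955).

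Of 34 tested members of the list of classical GR targets, 28 rose (82.4%, against 4.47% of all genes tested) and 1 fell, with a median log2 fold change of 2.15 against -0.01 over all genes. With ctrl. livers 1 to 3 and CORT livers 1 to 3 left out in turn, there were 0, 0, 0, 0, 1 and 0 falls. *Tsc22d3*, which encodes the anti-inflammatory leucine zipper GILZ, went from 104, 78.8 and 91.0 to 261, 249 and 253 CPM (log2 1.48 ± 0.12, adjusted p = 0.00141). *Per1*, a clock gene, went from 24.3, 17.7 and 13.7 to 72.9, 75.6 and 81.0 CPM (log2 2.04 ± 0.19, adjusted p = 0.00247), and the zinc finger gene *Zbtb16* from 16.6, 5.97 and 4.33 to 50.7, 92.4 and 58.6 CPM (log2 2.92 ± 0.49, adjusted p = 0.0173). The CORT livers were close together for *Tsc22d3* and *Per1*, whereas ctrl. liver 1 was the highest of its group for *Zbtb16*. *Sgk1*, a kinase that regulates ion transport, went from 11.2, 8.40 and 13.5 to 48.2, 41.0 and 27.0 CPM (log2 1.81 ± 0.25, adjusted p = 0.0101), and *Dusp1*, a phosphatase that shuts off MAP kinases, from 17.5, 21.2 and 13.7 to 94.6, 105 and 76.4 CPM (log2 2.40 ± 0.19, adjusted p = 0.00141). *Tat*, the tyrosine aminotransferase long used as a readout of glucocorticoid action in liver, rose by 1.35 ± 0.18 (adjusted p = 0.00774). The fall was *Pdk4*, the kinase that blocks pyruvate dehydrogenase in fasting, from 9.40, 10.6 and 10.2 to 3.41, 5.38 and 2.86 CPM (log2 -1.37 ± 0.24, adjusted p = 0.0194). Among members chosen after their values were seen, the transcription factor genes *Cebpd* and *Cebpb* rose by 2.67 ± 0.20 and 2.04 ± 0.16 (adjusted p = 0.00128 and 0.00128). The call of *Zbtb16* was lost without ctrl. liver 2 (adjusted p = 0.0816) and that of *Pdk4* without ctrl. liver 1, 2 or 3 or CORT liver 1 or 3 (up to 0.0835), and the other genes named here kept theirs.

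Acute phase proteins, which hepatocytes secrete into the plasma in inflammation, rose over a wide span of levels. Of 35 tested members, 21 rose (60%) and edgeR called 0 lower, with a median of 1.06, and 0 were lower at an unadjusted p below 0.05 or by DESeq2. Without ctrl. livers 1 to 3 and CORT livers 1 to 3 in turn it had 12, 8, 13, 18, 19 and 15 rises. The serum amyloid A genes *Saa1* and *Saa2* encode lipoprotein-bound proteins of the acute phase and are near-identical copies, so that reads may be assigned between them with error. *Saa1* was at 40.0, 34.0 and 31.9 CPM in the ctrl. livers and 1715, 741 and 1438 CPM in the CORT livers (log2 5.20 ± 0.34, adjusted p = 0.00109), and *Saa2* at 3.30, 1.31 and 1.37 CPM and 208, 64.9 and 147 CPM (log2 6.15 ± 0.57, adjusted p = 0.00222). CORT liver 2, the highest for the metallothioneins, was the lowest CORT liver for both. *Hp*, the hemoglobin scavenger haptoglobin, went from 1698, 1977 and 2143 to 4779, 5551 and 4276 CPM (log2 1.33 ± 0.14, adjusted p = 0.00369). The orosomucoid gene *Orm3* went from 1.87, 1.24 and 2.34 to 14.5, 28.1 and 12.2 CPM (log2 3.33 ± 0.39, adjusted p = 0.00530), and *Orm1* from 632, 616 and 737 to 1134, 1046 and 1036 CPM (log2 0.70 ± 0.11, adjusted p = 0.0130). *Serpina3n*, a protease inhibitor, went from 238, 218 and 235 to 503, 1248 and 606 CPM (log2 1.77 ± 0.33, adjusted p = 0.0216), highest in CORT liver 2. Members outside the naming rule, chosen after their values were seen, were the hepatokine *Fgl1* (2.68 ± 0.34, adjusted p = 0.00696) and the fibrinogen genes *Fga*, *Fgb* and *Fgg* (0.83, 0.84 and 0.72, adjusted p = 0.0336, 0.0161 and 0.0493). The call of *Orm1* was lost without ctrl. liver 1 or 2 (adjusted p up to 0.0697), that of *Serpina3n* without ctrl. liver 1, 2 or 3 (up to 0.0972), that of *Fga* without ctrl. liver 1 or 2 or CORT liver 1, 2 or 3 (up to 0.132), that of *Fgb* without ctrl. liver 1 or 2 or CORT liver 3 (up to 0.0798) and that of *Fgg* without any 1 of the 6 livers (up to 0.169), with RLE size factors and without the most abundant genes.

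Of 40 tested members of the list of complement and coagulation, 7 rose (17.5%) and edgeR called 0 lower, with a median of 0.24, 0 were lower at an unadjusted p below 0.05, and DESeq2 called 14 higher and 0 lower. There were 0, 0, 1, 3, 6 and 3 rises without ctrl. livers 1 to 3 and CORT livers 1 to 3 in turn. *C4b*, a component of the classical pathway, went from 1237, 1238 and 1459 to 2167, 2863 and 2291 CPM (log2 0.90 ± 0.14, adjusted p = 0.0133). The lectin gene *Mbl1* rose by 0.68 ± 0.11 and *Hc*, which encodes complement C5, by 0.65 ± 0.11 (log2 ± SE, adjusted p = 0.0172 and 0.0185). The central component *C3* was at 6064, 6849.7 and 6974 CPM and 8333, 15222 and 7979 CPM (log2 0.67 ± 0.25, adjusted p = 0.151), where CORT liver 2 stood far above the rest, and *C9* of the membrane attack complex at 434, 432 and 598 and 800.1, 567 and 752 CPM (log2 0.53 ± 0.18, adjusted p = 0.116). DESeq2 called both *C3* and *C9* higher (adjusted p 0.0392 to 0.315 and 0.0317 to 0.302 over the alternatives). The call of *C4b* was lost without ctrl. liver 1 or 2 (adjusted p up to 0.0708), that of *Mbl1* without ctrl. liver 1, 2 or 3 or CORT liver 1 (up to 0.0634) and that of *Hc* without ctrl. liver 1, 2 or 3 (up to 0.0869).

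Of 45 tested members of the cytokine, JAK-STAT and NF-kB list, 9 rose (20%) and 5 fell (11.1%), with a median of 0.17. Leaving out ctrl. livers 1 to 3 and CORT livers 1 to 3 in turn gave 6, 4, 5, 5, 8 and 6 rises and 1, 1, 2, 1, 2 and 1 falls. *Il1r1*, the signaling receptor for interleukin-1, went from 27.4, 25.4 and 33.8 to 128, 236 and 234 CPM (log2 2.79 ± 0.26, adjusted p = 0.00223), and the TNF receptor gene *Tnfrsf1b* from 22.6, 20.6 and 19.7 to 78.1, 72.7 and 74.8 CPM (log2 1.84 ± 0.09, adjusted p = 6.47e-04). *Il6ra*, the interleukin-6 receptor chain, went from 20.2, 12.9 and 9.07 to 39.4, 72.9 and 36.6 CPM (log2 1.82 ± 0.36, adjusted p = 0.0269). All 3 receptor genes were higher in every CORT liver, the TNF receptor with the least spread. *Nfkbia*, the inhibitor that holds NF-kB in the cytoplasm, rose by 1.37 ± 0.15, *Stat3*, the transcription factor downstream of interleukin-6, by 1.04 ± 0.12 and the chemokine *Cxcl1* by 2.06 ± 0.43 (log2 ± SE, adjusted p = 0.00456, 0.00456 and 0.0307). *Irf1*, an interferon regulatory factor, fell from 28.9, 22.6 and 21.8 to 10.3, 8.10 and 8.65 CPM (log2 -1.44 ± 0.16, adjusted p = 0.00389), and the interferon-inducible chemokine *Cxcl10* from 0.933, 1.56 and 1.24 to 0.379, 0.199 and 0.204 CPM (log2 -2.24 ± 0.44, adjusted p = 0.0269). *Stat5a* and *Irak2*, a kinase of the interleukin-1 pathway, changed by -0.66 ± 0.12 and -0.66 ± 0.16 (adjusted p = 0.0216 and 0.0456). *Socs3*, the feedback inhibitor of interleukin-6 signaling, was at 11.1, 5.79 and 3.57 CPM and 6.51, 13.6 and 11 CPM (log2 0.61 ± 0.43, adjusted p = 0.425), with overlapping groups. The calls of *Cxcl10* and *Irak2* were lost without any 1 of the 6 livers (adjusted p up to 0.118 and 0.128), and that of *Irak2* also without the filter on low counts. The call of *Cxcl1* was lost without ctrl. liver 1, 2 or 3 or CORT liver 1 or 3 (up to 0.116) and with limma-voom, that of *Il6ra* without ctrl. liver 2 or 3 or CORT liver 1 (up to 0.115) and that of *Stat5a* without ctrl. liver 1 or 2 or CORT liver 1 or 3 (up to 0.0770).

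Of 46 tested members of the list of MAPK, mTOR and feedback signaling, 17 rose (37.0%) and 2 fell (4.35%), with a median of 0.45. Over all genes tested 4.47% rose and 3.64% fell, so the share of falls was near that of all genes. The list had 10, 5, 9, 10, 15 and 12 rises and 0, 0, 2, 2, 2 and 2 falls without ctrl. livers 1 to 3 and CORT livers 1 to 3 in turn. *Ddit4*, the inhibitor of mTOR complex 1 also called REDD1, went from 13.8, 8.21 and 15.4 to 141, 189.5 and 94.1 CPM (log2 3.51 ± 0.33, adjusted p = 0.00223), and *Mtor* itself from 39.5, 37.4 and 36.2 to 50.6, 47.6 and 56.0 CPM (log2 0.45 ± 0.09, adjusted p = 0.0313). *Dusp4*, a nuclear MAP kinase phosphatase, rose from 0.503, 0.498 and 0.962 to 2.73, 6.11 and 2.38 CPM (log2 2.51 ± 0.49, adjusted p = 0.0264), whereas *Dusp10*, which acts on p38 and JNK, fell from 4.52, 4.11 and 4.12 to 1.14, 1.13 and 1.70 CPM (log2 -1.68 ± 0.26, adjusted p = 0.0133). Both families of phosphatases and of Rgs proteins were split, since *Rgs3* fell by 1.20 ± 0.23 (adjusted p = 0.0254) while *Rgs16* rose. The AP-1 gene *Fos* was at 0.646, 0.560 and 0.0687 CPM and 3.33, 6.38 and 2.38 CPM (log2 3.22 ± 0.66, adjusted p = 0.0293), with fewer than 10 counts in each ctrl. liver. *Ddit4* and *Rgs16* kept their calls with any 1 liver left out. The call of *Fos* was lost without any 1 of the 6 livers (adjusted p up to 0.105), that of *Mtor* without ctrl. liver 1, 2 or 3 or CORT liver 1 or 3 (up to 0.125), that of *Dusp4* without ctrl. liver 1, 2 or 3 or CORT liver 1 (up to 0.115), and those of *Dusp10* and *Rgs3* without ctrl. liver 1 or 2 (up to 0.0642 and 0.0987).

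**Figure D2:**
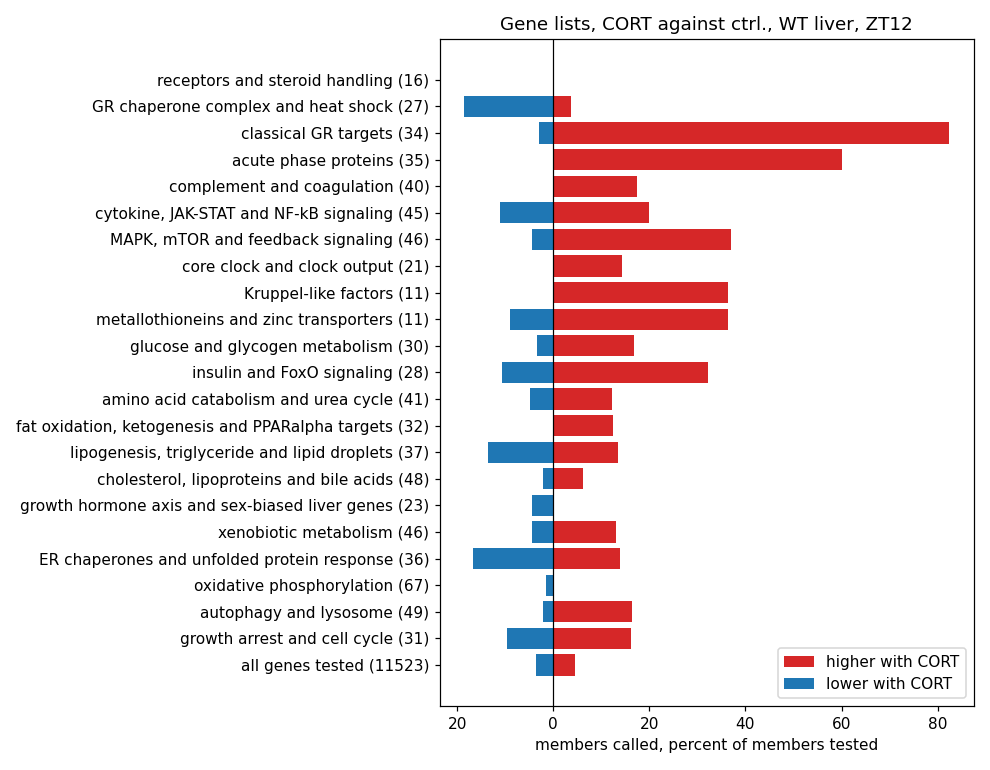
Share of the tested members of each gene list that were higher (red, to the right) or lower (blue, to the left) with CORT, in percent, with the number of members tested in brackets. The classical GR targets (82.4% higher) and the acute phase proteins (60% higher) have the longest bars, against 4.47% higher and 3.64% lower over all genes tested.

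Of 21 tested members of the clock list, 3 rose (14.3%), *Per1*, *Ciart* and *Cry2*, and edgeR called 0 lower (median 0.16). At an unadjusted p below 0.05, 4 were lower, against 1472 of all 11523 genes tested. DESeq2 called 5 higher and 3 lower, against 724 and 566 of all genes. With ctrl. livers 1 to 3 and CORT livers 1 to 3 left out in turn, there were 3, 1, 3, 1, 3 and 2 rises and 0, 0, 0, 0, 3 and 0 falls. *Ciart*, a repressor of Clock and Bmal1, went from 10.3, 5.35 and 1.92 to 57.7, 30.5 and 46.4 CPM (log2 2.94 ± 0.52, adjusted p = 0.0187), and the repressor *Cry2* from 45.6, 38.2 and 39.7 to 73.4, 67.5 and 56.6 CPM (log2 0.68 ± 0.12, adjusted p = 0.0215). The activator *Arntl* (Bmal1) was at 10.1, 5.35 and 14.6 CPM and 0.454, 5.71 and 0.681 CPM (log2 -2.11 ± 0.84, adjusted p = 0.168). CORT livers 1 and 3 were the lowest of all for it, and CORT liver 2 lay within the ctrl. range. *Cry1* was at 26, 29.4 and 37.6 CPM and 10.4, 22.5 and 9.80 CPM (log2 -1.12 ± 0.33, adjusted p = 0.0818), again with CORT liver 2 the highest of its group. *Dbp*, an output gene, was at 20.4, 6.66 and 3.50 CPM and 55.0, 12.7 and 41.9 CPM (log2 1.85 ± 0.71, adjusted p = 0.157), and the repressor *Nr1d1* at 15.3, 5.97 and 2.82 and 14.7, 8.50 and 22.5 CPM (log2 0.93 ± 0.59, adjusted p = 0.373), both with overlapping groups. *Per2* was at 101, 74.6 and 66.1 and 56.7, 28.6 and 56.9 CPM (log2 -0.76 ± 0.28, adjusted p = 0.139). Without CORT liver 2 both *Arntl* and *Cry1* passed the threshold (adjusted p down to 0.0112 and 0.00640), DESeq2 called *Cry1* and *Per2* (*Per2* down to 0.0468), whereas *Ciart* lost its call without ctrl. liver 2 or CORT liver 1 or 3 (adjusted p up to 0.0904) and *Cry2* without ctrl. liver 2 or 3 or CORT liver 1 (up to 0.0972).

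Of the 11 tested Kruppel-like factors, zinc finger regulators of metabolism, 4 rose (36.4%) and edgeR called 0 lower, with a median of 0.87, 0 were lower at an unadjusted p below 0.05, and DESeq2 called 5 higher and 0 lower. Without ctrl. livers 1 to 3 and CORT livers 1 to 3 in turn it had 3, 2, 2, 4, 5 and 3 rises. *Klf15*, which drives amino acid breakdown in fasting, went from 85.1, 74.9 and 88.0 to 168, 212 and 182 CPM (2.26-fold higher, adjusted p = 0.00288), and *Klf3* from 59.3, 48.3 and 43.3 to 123, 138 and 99.7 CPM (log2 1.26 ± 0.16, adjusted p = 0.00711). Both were higher in each CORT liver. *Klf2* and *Klf13* rose by 1.58 ± 0.27 and 1.17 ± 0.20 (adjusted p = 0.0184 and 0.0187), and lost their calls without ctrl. liver 1, 2 or 3 (up to 0.0846) and without ctrl. liver 2 or 3 or CORT liver 3 (up to 0.0887) respectively. *Klf9*, a direct target of GR in many tissues, was at 60.5, 67.3 and 72.5 CPM and 92.1, 181 and 94.0 CPM (log2 0.87 ± 0.26, adjusted p = 0.0884). All CORT livers exceeded the ctrl. livers for *Klf9*, CORT liver 2 by the most, and it passed the threshold without that liver and with DESeq2 (adjusted p 0.00868 to 0.224 over the alternatives).

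Of the list of glucose and glycogen metabolism 30 members were tested, and their median was 0.08. Among them 5 rose (16.7%, against 4.47% of all genes) and 1, *Pdk4*, fell (3.33%, near the 3.64% of all genes). There were 2, 1, 2, 4, 5 and 2 rises and 0, 0, 0, 0, 2 and 0 falls without ctrl. livers 1 to 3 and CORT livers 1 to 3 in turn. *Pck1*, the rate-limiting carboxykinase of gluconeogenesis, went from 1363, 473 and 649 to 4721, 6176 and 4372 CPM (log2 2.62 ± 0.39, adjusted p = 0.0124). *Pfkfb3*, which makes the activator of phosphofructokinase, went from 17.7, 7.03 and 5.02 to 127, 73.8 and 133 CPM (log2 3.50 ± 0.47, adjusted p = 0.00894), and its relative *Pfkfb2* from 8.54, 8.65 and 6.80 to 12.6, 21.2 and 17.2 CPM (log2 1.09 ± 0.21, adjusted p = 0.0250). In *Pck1* and *Pfkfb3* ctrl. liver 1 was again the highest of its group. *Pcx*, the pyruvate carboxylase, and *Ldha*, a lactate dehydrogenase subunit, rose by 1.03 ± 0.21 and 0.46 ± 0.10 (adjusted p = 0.0276 and 0.0317). *G6pc*, the last enzyme of glucose release, was at 153, 127 and 282 CPM and 238, 518 and 431 CPM (log2 1.08 ± 0.37, adjusted p = 0.121), with overlapping groups. The call of *Pck1* was lost without ctrl. liver 3 (adjusted p = 0.0503) and that of *Pfkfb3* without ctrl. liver 2 (adjusted p = 0.0551). The calls of *Pfkfb2* and *Pcx* were lost without ctrl. liver 1, 2 or 3 or CORT liver 3 (up to 0.0864 and 0.115), and that of *Ldha* without ctrl. liver 1, 2 or 3 or CORT liver 1 or 3 (up to 0.119).

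In insulin and FoxO signaling, 9 of 28 tested members rose (32.1%) and 3 fell (10.7%), with a median of 0.31. Leaving out ctrl. livers 1 to 3 and CORT livers 1 to 3 in turn gave 6, 2, 5, 7, 9 and 6 rises and 1, 1, 2, 2, 3 and 1 falls. *Foxo1*, the transcription factor that insulin keeps out of the nucleus, went from 31.1, 29.5 and 25.6 to 66.3, 81.2 and 62.6 CPM (log2 1.29 ± 0.13, adjusted p = 0.00303). *Irs1*, an adaptor of the insulin receptor, fell from 27.3, 26.2 and 21.5 to 14.8, 14.7 and 11.4 CPM (log2 -0.88 ± 0.15, adjusted p = 0.0176), while *Irs2* was at 5.03, 9.89 and 26.1 CPM and 10.4, 32.6 and 13.1 CPM (log2 0.46 ± 0.64, adjusted p = 0.704). *Gadd45g* went from 16.4, 19.97 and 2.20 to 152, 155 and 138 CPM (log2 3.52 ± 0.62, adjusted p = 0.0187), with ctrl. liver 3 far below the other ctrl. livers. *Cdkn1a*, the cell cycle inhibitor p21, went from 4.67, 3.55 and 2.82 to 19.8, 52.3 and 20.3 CPM (log2 3.07 ± 0.44, adjusted p = 0.0108), highest in CORT liver 2. The lipid receptor *S1pr1* fell by 0.92 ± 0.09 (adjusted p = 0.00297), and the mitochondrial superoxide dismutase *Sod2* fell by 0.37 ± 0.08 (adjusted p = 0.0298). *Foxo1* and *S1pr1* kept their calls with any 1 liver left out. Those of *Irs1* and *Gadd45g* were lost without ctrl. liver 1 or 2 or CORT liver 3 (up to 0.0807) and without ctrl. liver 1 or 2 or CORT liver 1 or 3 (up to 0.0634), that of *Cdkn1a* without ctrl. liver 2 (0.0626) and that of *Sod2* without ctrl. liver 1, 2 or 3 or CORT liver 1 or 3 (up to 0.124).

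Of 41 tested members of the list of amino acid catabolism and the urea cycle, 5 rose (12.2%) and 2 fell (4.88%, against 3.64% of all genes), with a median of -0.03. The list had 3, 3, 3, 4, 4 and 5 rises and 1, 1, 1, 1, 3 and 1 falls without ctrl. livers 1 to 3 and CORT livers 1 to 3 in turn. *Sds*, the serine dehydratase, went from 176, 103 and 116 to 573, 519 and 529 CPM (log2 2.04 ± 0.20, adjusted p = 0.00288), and *Got1*, the cytosolic aspartate aminotransferase, from 139.6, 94.0 and 129 to 325, 737 and 372 CPM (log2 1.98 ± 0.33, adjusted p = 0.0161). *Tdo2*, which opens tryptophan breakdown, rose by 0.61 ± 0.13 and the mitochondrial ornithine carrier *Slc25a15* by 0.83 ± 0.10 (adjusted p = 0.0371 and 0.00564). *Nags*, which makes the activator of the urea cycle, fell from 78.4, 70.6 and 76.1 to 50.7, 42.8 and 43.8 CPM (log2 -0.71 ± 0.10, adjusted p = 0.00953), and *Otc*, which makes citrulline, from 465, 405 and 456 to 331, 316 and 348 CPM (log2 -0.41 ± 0.10, adjusted p = 0.0431). *Cps1*, the entry enzyme of the cycle, was at 4956, 3969 and 4036 CPM and 3682, 5469.8 and 3948 CPM (log2 0.02 ± 0.18, adjusted p = 0.972), with overlapping groups. *Sds*, *Slc25a15* and *Nags* kept their calls with any 1 liver left out. That of *Otc* was lost without any 1 of the 6 livers (adjusted p up to 0.135) and without the filter on low counts, that of *Got1* without ctrl. liver 1, 2 or 3 (up to 0.0758) and that of *Tdo2* without ctrl. liver 1, 2 or 3 or CORT liver 1 or 2 (up to 0.141).

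Of 32 tested members of the list of fat oxidation, ketogenesis and PPARalpha targets, 4 rose (12.5%) and edgeR called 0 lower (median 0.04). At an unadjusted p below 0.05, 3 were lower, against 1472 of all 11523 genes tested. DESeq2 called 6 higher and 0 lower, against 724 and 566 of all genes. With ctrl. livers 1 to 3 and CORT livers 1 to 3 left out in turn, there were 2, 1, 2, 2, 2 and 1 rises and 0, 0, 0, 0, 0 and 1 falls. *Angptl4*, a secreted inhibitor of lipoprotein lipase, went from 32.1, 24.6 and 34.9 to 121, 154 and 161 CPM (log2 2.25 ± 0.17, adjusted p = 0.00128), in the opposite direction to *Angptl8*. *Cpt1a*, the gatekeeper of fatty acid entry into mitochondria, rose from 260, 236 and 165 to 370.4, 423 and 386 CPM (log2 0.83 ± 0.17, adjusted p = 0.0293), the coactivator *Ppargc1b* by 1.23 ± 0.22 and the uncoupling protein *Ucp2* by 1.11 ± 0.26 (adjusted p = 0.0196 and 0.0437). The PPARalpha target *Cyp4a14* was at 71.8, 91.0 and 17.0 CPM and 31.3, 221 and 95.0 CPM (log2 0.95 ± 0.77, adjusted p = 0.484), with overlapping groups. *Angptl4* kept its call with any 1 liver left out. The call of *Ucp2* was lost without any 1 of the 6 livers (adjusted p up to 0.150) and with limma-voom, that of *Cpt1a* without ctrl. liver 2 or CORT liver 1, 2 or 3 (up to 0.0972) and that of *Ppargc1b* without ctrl. liver 1, 2 or 3 or CORT liver 3 (up to 0.0845).

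Among genes of lipogenesis, triglyceride and lipid droplets, the called genes went both ways and *Fasn* and *Srebf1* showed no call. Of 37 tested members, 5 rose (13.5%) and 5 fell (13.5%), with a median of -0.11. Without ctrl. livers 1 to 3 and CORT livers 1 to 3 in turn it had 5, 2, 4, 4, 4 and 4 rises and 2, 3, 4, 1, 4 and 4 falls. *Lpin2*, a relative of *Lpin1*, went from 275, 227 and 162 to 531, 761 and 591 CPM (log2 1.5 ± 0.22, adjusted p = 0.0111). *Pnpla2*, the adipose triglyceride lipase that the product of *G0s2* inhibits, went from 47.0, 39.3 and 37.3 to 85.6, 115 and 83.7 CPM (log2 1.20 ± 0.15, adjusted p = 0.00717), so that enzyme and inhibitor moved in opposite directions. The droplet coat gene *Plin5* rose from 46.0, 47.7 and 54.6 to 119, 133 and 130.5 CPM (log2 1.37 ± 0.10, adjusted p = 0.00121), and *Plin2* fell from 234, 234 and 290.3 to 106, 129 and 182 CPM (log2 -0.86 ± 0.20, adjusted p = 0.0471). The choline kinase *Chka* fell from 62.5, 54.1 and 97.1 to 16.7, 27.2 and 16.1 CPM (log2 -1.83 ± 0.28, adjusted p = 0.0133), and the acyltransferase *Agpat2* and the hormone-sensitive lipase *Lipe* gave -0.89 ± 0.09 and -1.12 ± 0.21 (adjusted p = 0.00361 and 0.0219). *Fasn*, the fatty acid synthase, was at 559, 494 and 298 CPM and 228, 72.8 and 342 CPM (log2 -1.07 ± 0.51, adjusted p = 0.236), and its regulator *Srebf1* at 611, 443 and 231 and 351, 146 and 376 CPM (log2 -0.56 ± 0.43, adjusted p = 0.468). CORT liver 2 was the lowest liver for both, and CORT liver 3 lay within the ctrl. range. *Plin5*, *Pnpla2* and *Agpat2* kept their calls with any 1 liver left out. The call of *Lpin2* was lost without ctrl. liver 2 (adjusted p = 0.0619), that of *Plin2* without ctrl. liver 1, 2 or 3 or CORT liver 1 or 2 (up to 0.131), that of *Chka* without CORT liver 1 or 3 (up to 0.0505) and that of *Lipe* without ctrl. liver 1 or 2 or CORT liver 1 or 3 (up to 0.0896).

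Of 48 tested members of the list of cholesterol, lipoproteins and bile acids, 3 rose (6.25%) and 1 fell (2.08%; 7 and 2 with DESeq2), near the shares of all genes (4.47% and 3.64%), with a median of 0.06. There were 3, 1, 3, 1, 4 and 1 rises and 1, 1, 1, 1, 7 and 1 falls without ctrl. livers 1 to 3 and CORT livers 1 to 3 in turn. *Abcg8* and *Abcg5*, the subunits of the sterol exporter in the canalicular membrane, went from 52.2, 31.7 and 29.6 to 121, 169 and 109 CPM (log2 1.82 ± 0.26, adjusted p = 0.0103) and from 53.8, 35.6 and 25.8 to 93.2, 99.5 and 92.3 CPM (log2 1.31 ± 0.24, adjusted p = 0.0216). *Abcb4*, the phospholipid exporter, rose by 0.68 ± 0.11 (adjusted p = 0.0154). *Insig1*, which retains the sterol sensor in the endoplasmic reticulum, fell from 634, 699 and 490.2 to 253, 230.2 and 266 CPM (log2 -1.28 ± 0.15, adjusted p = 0.00470). *Cyp7a1* and *Abcb11*, the landmarks of bile acid synthesis and export, gave log2 fold changes of -0.36 and 0.16 (adjusted p = 0.627 and 0.730). *Insig1* kept its call with any 1 liver left out. Those of *Abcg5* and *Abcb4* were lost without ctrl. liver 2 or CORT liver 1 or 3 (up to 0.0976 and 0.0669) and that of *Abcg8* without ctrl. liver 2 (0.0607).

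The growth hormone axis and sex-biased genes gave 0 rises and 1 fall (*Stat5a*) among 23 tested members, with a median of -0.11. The share of falls (4.35%) was near the 3.64% of all genes. At an unadjusted p below 0.05 there were 0 rises and 4 falls, against 1525 and 1472 of all 11523 genes tested. DESeq2 called 0 rises and 3 falls, against 724 and 566 of all genes. Leaving out ctrl. livers 1 to 3 and CORT livers 1 to 3 in turn gave 0, 0, 1, 0, 1 and 0 falls. *Igf1* was at 519, 527 and 540 CPM and 569, 674 and 530.5 CPM (log2 0.16 ± 0.11, adjusted p = 0.412). *Socs2* and *Cyp7b1* gave 1.16 and -0.11 (adjusted p = 0.27 and 0.859). In xenobiotic metabolism 6 of 46 tested members rose (13%) and 2 fell (4.35%), with a median of -0.04. Over all genes tested the shares were 4.47% and 3.64%, so the share of falls was near that of all genes. The list had 6, 2, 3, 6, 7 and 5 rises and 0, 0, 1, 1, 8 and 0 falls without ctrl. livers 1 to 3 and CORT livers 1 to 3 in turn. *Cyp2b10*, the classical target of the receptor CAR, went from 3.88, 2.61 and 2.20 to 19.99, 42.3 and 16.3 CPM (log2 3.18 ± 0.42, adjusted p = 0.00782), and *Alas1*, the first enzyme of heme synthesis, from 401, 383 and 333 to 1090.1, 1242 and 1910 CPM (log2 1.93 ± 0.22, adjusted p = 0.00456). *Ahr*, the aryl hydrocarbon receptor, went from 27.6, 30.1 and 24.3 to 93.1, 126 and 65.1 CPM (log2 1.79 ± 0.23, adjusted p = 0.00754), and *Por*, the electron donor of cytochromes P450, from 396, 283 and 212 to 686, 961 and 678 CPM (log2 1.38 ± 0.25, adjusted p = 0.0200). All 4 were higher in each CORT liver. The glutathione transferases *Gsta2* and *Gsta4* gave -1.16 ± 0.21 and -0.49 ± 0.10 (adjusted p = 0.0215 and 0.0298). *Nr1i2* (PXR), *Nr1i3* (CAR) and *Cyp3a11* gave 0.54, 0.05 and 0.15 (adjusted p = 0.0692, 0.923 and 0.427), and *Nr1i2* passed without ctrl. liver 1 and with DESeq2 (adjusted p 0.0149 to 0.218 over the alternatives). *Alas1* and *Ahr* kept their calls with any 1 liver left out, *Cyp2b10* lost it without ctrl. liver 2 (0.0530), *Por* without ctrl. liver 2 or 3 (up to 0.0905), *Gsta2* and *Stat5a* without ctrl. liver 1 or 2 or CORT liver 1 or 3 (up to 0.0845 and 0.0770) and *Gsta4* without ctrl. liver 1, 2 or 3 or CORT liver 1 or 3 (up to 0.107).

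Of 36 tested members of the list of ER chaperones and the unfolded protein response, 5 rose (13.9%) and 6 fell (16.7%), with a median of -0.09. With ctrl. livers 1 to 3 and CORT livers 1 to 3 left out in turn, there were 5, 2, 3, 4, 5 and 4 rises and 5, 1, 0, 0, 6 and 0 falls. *Hspa5*, the master chaperone BiP, went from 956, 1804 and 1069.5 to 566, 525 and 634 CPM (log2 -1.15 ± 0.24, adjusted p = 0.0308), with ctrl. liver 2 the highest of its group. *Sdf2l1*, *Syvn1*, *Manf* and *Pdia4*, which serve folding, degradation and disulfide exchange in the ER, changed by -1.73, -1.34, -1.29 and -1.17 (adjusted p = 0.0224, 0.0324, 0.0335 and 0.0302). *Chac1*, which degrades glutathione, went from 0.574, 0.871 and 0.756 to 6.89, 14.9 and 11.4 CPM (log2 3.89 ± 0.35, adjusted p = 0.00219), and *Herpud1*, a component of ER-associated degradation, from 370.2, 324 and 259 to 1048, 926 and 1021 CPM (log2 1.65 ± 0.15, adjusted p = 0.00199). The pseudokinase *Trib3* and the stress protein *Sesn2* rose by 1.67 ± 0.25 and 1.22 ± 0.20 (adjusted p = 0.0122 and 0.0148). *Chac1* and *Herpud1* kept their calls with any 1 liver left out. The call of *Hspa5* was lost without ctrl. liver 3 or CORT liver 1, 2 or 3 (up to 0.0954), those of *Pdia4* and *Sdf2l1* without ctrl. liver 2 or 3 or CORT liver 1 or 3 (up to 0.0996 and 0.0813), that of *Manf* without ctrl. liver 1, 2 or 3 or CORT liver 1 or 3 (up to 0.111), that of *Syvn1* without ctrl. liver 2 or 3 or CORT liver 1, 2 or 3 (up to 0.0883), that of *Trib3* without ctrl. liver 2 (0.0626) and that of *Sesn2* without ctrl. liver 2 or 3 or CORT liver 1 (up to 0.0669).

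Of 49 tested members of the list of autophagy and lysosome, 8 rose (16.3%) and 1 fell (2.04%, below the 3.64% of all genes). The list's median was 0.13. Without ctrl. livers 1 to 3 and CORT livers 1 to 3 in turn it had 5, 3, 4, 4, 6 and 5 rises and 0, 0, 0, 0, 2 and 0 falls. *Ulk1*, the kinase that starts autophagy, went from 47.2, 42.4 and 46.6 to 137, 194 and 159 CPM (log2 1.85 ± 0.14, adjusted p = 0.00128), and *Trp53inp1*, which promotes autophagy under stress, from 36.0, 44.2 and 34.6 to 225, 327 and 127 CPM (log2 2.56 ± 0.33, adjusted p = 0.00711). *Atg14*, a subunit of the lipid kinase of the phagophore, went from 12.3, 11.6 and 12.2 to 26.5, 35.8 and 31.6 CPM (log2 1.38 ± 0.13, adjusted p = 0.00247). These 3 were higher in each CORT liver and kept their calls with any 1 liver left out. *Map1lc3b* and *Gabarapl1*, which coat the autophagosome, rose by 0.63 ± 0.09 and 0.75 ± 0.16 (adjusted p = 0.0103 and 0.0354), and *Atg101*, a partner of the Ulk1 complex, changed by -0.56 ± 0.12 (adjusted p = 0.0356). The call of *Map1lc3b* was lost without ctrl. liver 2 (adjusted p = 0.0619), that of *Gabarapl1* without ctrl. liver 1, 2 or 3 or CORT liver 1 (up to 0.135) and that of *Atg101* without ctrl. liver 1, 2 or 3 or CORT liver 1 or 3 (up to 0.112). In oxidative phosphorylation 0 of 67 tested members rose and 1 fell (1.49%), with a median of -0.16. At an unadjusted p below 0.05 there were 0 rises and 12 falls, against 1525 and 1472 of all 11523 genes tested. DESeq2 called 0 rises and 2 falls, against 724 and 566 of all genes. There were 0, 0, 0, 0, 0 and 0 falls without ctrl. livers 1 to 3 and CORT livers 1 to 3 in turn. The leads *Ndufs1* of complex I and *Atp5b* of the ATP synthase gave -0.14 and -0.05 (adjusted p = 0.486 and 0.791), and the fall was *Cox7a1*, a subunit isoform of muscle, at 1.51, 1.12 and 0.893 CPM and 0.303, 0.199 and 0.272 CPM (log2 -2.15 ± 0.42, adjusted p = 0.0259), which lost its call without any 1 of the 6 livers (up to 0.0976).

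Of 31 tested members of the list of growth arrest and cell cycle, 5 rose (16.1%) and 3 fell (9.68%), with a median of -0.10. Leaving out ctrl. livers 1 to 3 and CORT livers 1 to 3 in turn gave 4, 2, 4, 3, 4 and 3 rises and 1, 0, 0, 1, 3 and 1 falls. Beside *Cdkn1a*, *Gadd45b*, *Gadd45g* and *Trp53inp1*, the fifth rise was *Btg2* (1.17 ± 0.26, adjusted p = 0.0361), named after its value was seen and lost without ctrl. liver 2 or 3 or CORT liver 1, 2 or 3 (up to 0.129). *Mcm2* and *Mcm3*, subunits of the replicative helicase, went from 4.02, 4.36 and 5.15 to 1.74, 1.33 and 1.70 CPM (log2 -1.5 ± 0.24, adjusted p = 0.0146) and from 4.09, 3.92 and 2.82 to 1.67, 1.73 and 1.23 CPM (log2 -1.23 ± 0.28, adjusted p = 0.0398). The apoptosis gene *Bbc3* went from 9.05, 9.96 and 10.6 to 2.95, 5.25 and 2.59 CPM (log2 -1.45 ± 0.27, adjusted p = 0.0231). All 3 were lower in each CORT liver. The proliferation marker *Mki67* was at 0.359, 0.747 and 1.58 CPM and 0.833, 1.53 and 0.136 CPM (log2 -0.10 ± 0.80, adjusted p = 0.957), and *Ccnd1* at 34.9, 28.0 and 13.5 and 32.9, 10.3 and 17.8 CPM (log2 -0.33 ± 0.47, adjusted p = 0.707). The call of *Mcm3* was lost without any 1 of the 6 livers (adjusted p up to 0.148) and without the filter on low counts, that of *Mcm2* without ctrl. liver 2 or 3 (up to 0.0677) and that of *Bbc3* without ctrl. liver 1, 2 or 3 or CORT liver 1 or 3 (up to 0.0887).

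To compare corticosterone with caloric restriction, each effect was measured against its own controls and the difference of the effects was tested. In the diet comparison 6155 of 13062 genes were called (47.1%, with 23.5% higher and 23.6% lower), and the difference of the effects passed for 2923 of 12982 genes (22.5%). Of the 935 genes called with CORT, 934 were tested for diet. Both treatments moved 435 of them in the same direction and 163 in opposite directions, and 336 were not called for diet. The genes tested in both held 2834 diet rises and 2922 diet falls. The 279 genes that rose with both were 54.3% of the CORT rises and 9.84% of these diet rises. The 156 that fell with both were 37.1% of the CORT falls and 5.34% of these diet falls. Of all genes tested in both, 24.7% rose and 25.5% fell on cal. res. Opposite calls were 14.2% of the CORT rises and 21.4% of the falls, below these shares of all genes. The test of the difference passed for 242 of the 336 and 92 of the 435, among which 60 changed more with CORT and 32 more on cal. res. The genes called with CORT and cal. res., same direction, numbered 215, 115, 205, 229 and 209 without ctrl. livers 1, 2 and 3 and CORT livers 1 and 3, and those called with CORT and cal. res., opposite direction, 74, 34, 80, 73 and 58.

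The difference of the effects passed as positive for 4 of 11 members of the metallothionein list, 19 of 35 acute phase genes and 10 of 34 classical targets, and as negative for 2, 3 and 4, against 11.4% and 11.2% of all genes. It passed as negative for 19 of 67 members of oxidative phosphorylation (0 positive), 11 of 27 of the GR chaperones (1), 12 of 41 of amino acid catabolism (1), 10 of 36 of the ER chaperones (2) and 17 of 46 of xenobiotic metabolism (7). Over the clock list the controls of the diet comparison lay nearest to ZT12 of the series, and the cal. res. livers to ZT16, ZT16 and ZT20, whereas over all genes the controls lay nearest to ZT8, ZT8 and ZT12 and the cal. res. livers to ZT8. *Mt2* and *Mt1* gave -1.16 and -0.58 on cal. res. (adjusted p = 0.0963 and 0.290), a difference of 10.01 and 7.77 (adjusted p = 5.37e-05 and 8.71e-05). On cal. res. *Saa1* fell by 2.23 (adjusted p = 0.00254), and the difference was 7.41 (SE 0.55, adjusted p = 2.48e-05). In the other direction, *Pdk4* rose on cal. res. by 5.53 (adjusted p = 0.00149) and fell with CORT, a difference of -6.92 (adjusted p = 4.41e-04). The chaperone gene *Hsp90aa1* rose on cal. res. by 0.50 (adjusted p = 0.00888; difference -1.84, adjusted p = 3.53e-04). *Arntl* rose on cal. res. by 4.57 (adjusted p = 0.00142; difference -6.69, adjusted p = 0.00320). *Fkbp5*, *Sgk1* and *Klf15* rose with both treatments, by 2.36, 1.52 and 1.15 on cal. res., with differences of 0.26, 0.27 and 0.01 that did not pass (adjusted p = 0.721, 0.558 and 0.986).

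The widest opposite effects among named genes belonged to major urinary proteins, pheromone carriers secreted by the male liver and encoded by a family of near-identical genes, whose reads may be shared between copies. *Mup15* was at 604, 384 and 361 CPM in the ctrl. livers and 2263, 2688 and 2245 CPM in the CORT livers (log2 2.42 ± 0.22, adjusted p = 0.00212), and at 793, 902 and 1294 CPM and 2.61, 0.597 and 4.62 CPM in control and cal. res. livers of the diet comparison (-8.58, adjusted p = 2.10e-04). *Mup17*, *Mup19*, *Mup14* and *Mup11* rose with CORT by 2.08, 0.92, 0.77 and 0.83 (adjusted p = 0.0101, 0.0154, 0.0483 and 0.0270) and gave -8.33, -8.15, -7.27 and -7.11 on cal. res. (adjusted p = 2.55e-04, 2.82e-04, 4.85e-04 and 2.44e-04). For these 5 genes the difference of the effects ran from 7.92 to 10.98 (adjusted p = 2.59e-05 and 2.19e-05). The CORT call of *Mup15* held with any 1 liver left out. That of *Mup17* was lost without ctrl. liver 2 (adjusted p = 0.0611), that of *Mup19* without CORT liver 1 (0.0516), that of *Mup11* without ctrl. liver 1 or 2 or CORT liver 1 or 3 (up to 0.0932) and that of *Mup14* without any 1 of the 6 livers (up to 0.139).

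**Figure D3:**
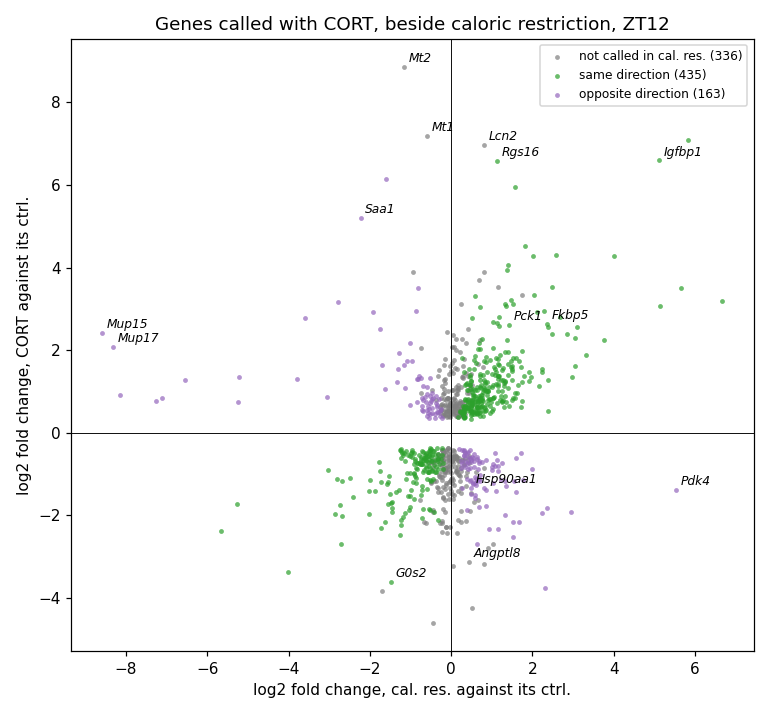
Log2 fold change with CORT (vertical) and on cal. res. (horizontal), each against its own controls, for the 934 genes called with CORT and tested in both, colored by the call on cal. res. Of these, 435 (green) changed in the same direction, 163 (purple) in opposite directions, and 336 (grey) were not called on cal. res.

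To ask which of the CORT genes depend on hepatocyte GR in control-fed mice at ZT12, GR LKO and WT livers were compared. Of 11428 genes, 238 were called (2.08%), 145 as lower (1.27%) and 0.814% as higher in GR LKO. The count was 137 without WT liver 2, 141 without WT liver 3 and 144 without GR LKO liver 1, and DESeq2 called 564. The 145 lower genes were 85 without WT liver 2, 88 without WT liver 3, 90 without GR LKO liver 1 and 94 without GR LKO liver 2. Among 499 CORT rises tested in both, 60 were lower in GR LKO, which is 12.0% of the CORT rises and 41.4% of the genes lower in GR LKO, against 1.3% of all genes tested in both. Among 411 CORT falls tested in both, 8 were higher in GR LKO (1.95%), against 0.707% of all genes tested in both. These 8 were 10.1% of the 79 genes higher in GR LKO among those tested in both. The count of 60 was 32 without ctrl. liver 2 and 39 without WT liver 2 or without GR LKO liver 2, 146 with DESeq2 and 22 with a replicate block. *Nr3c1* was at 80.8, 86.3, 73.3 and 86.0 CPM in the WT livers and 18.2, 20.1, 19.7 and 24.5 CPM in the GR LKO livers (log2 fold change -1.98, adjusted p = 5.05e-05). Of the classical GR targets, 13 of 32 tested were lower in GR LKO. *Zbtb16* was at 39.5, 54.2, 64.6 and 49.7 CPM and 3.66, 4.71, 2.39 and 3.46 CPM (log2 fold change -3.86, SE 0.21, adjusted p = 5.05e-05), and *Fkbp5* at 61.4, 63.6, 49.7 and 107 CPM and 16.4, 16.2, 14.8 and 10.2 CPM (-2.29, SE 0.25, adjusted p = 0.00224). Both were lower in every GR LKO liver.

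Several further CORT genes went the opposite way in GR LKO. *Il1r1*, *Tsc22d3*, *Sds* and *Herpud1* gave -2.51, -1.51, -1.16 and -0.94 (adjusted p = 0.00311, 0.0115, 0.00133 and 0.00647). *Pfkfb3* and *Per1* gave -1.65 and -1.04 (adjusted p = 0.0234 and 0.0332). Several of the largest CORT rises did not pass in GR LKO livers. *Mt2* and *Mt1* gave -1.06 and -0.47 (adjusted p = 0.379 and 0.838), *Lcn2* and *Saa1* -2.08 and -1.75 (adjusted p = 0.0723 and 0.203), *Lpin1* and *Igfbp1* -3.45 and -2.42 (adjusted p = 0.0750 and 0.0938). *Lpin1* was at 167 to 439 CPM in WT and 3.29 to 76.5 CPM in GR LKO livers, and *Igfbp1* at 5.69 to 31.65 and 0.882 to 5.61. *Saa1* was at 23.9 to 134 and 11.7 to 17.85 CPM, and *Mt1* at 3.08 to 17.9 and 1.82 to 8.08. Levels were low for *Lcn2* (0.923 to 3.09 and 0.252 to 0.647 CPM) and *Mt2* (0.959 to 3.24 and 0.412 to 1.37). The lack of a call is not evidence that these genes are independent of hepatocyte GR. *Cyp2b10* was higher in GR LKO by 2.68 (adjusted p = 0.00344) as well as with CORT. Whether the CORT effect itself needs GR was not tested, since no GR LKO mice received corticosterone in this series.

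The CORT effects were set beside the daily range of each gene, since the ctrl. livers differ from ZT12 of the time series. In control-fed WT livers at 6 time points the range was the highest minus the lowest mean log2 CPM. Its median was 0.77 for the CORT rises, 0.83 for the CORT falls and 0.53 for all genes tested. The CORT effect exceeded the daily range for 330 of the 515 rises (64.1%) and 242 of the 420 falls (57.6%), against 18.1% of all genes tested, a contrast fixed by the calling. For 229 of the rises (44.5%) the daily maximum lay at ZT12 and for a further 142 (27.6%) at ZT8, against 21.8% and 16.9% of all genes. The falls had their maximum least often at these times, at ZT12 in 18 (4.29%) and at ZT8 in 26 (6.19%), and most often at ZT20 (116, 27.6%, against 11.1% of all genes). *Mt2*, *Mt1* and *Lcn2* had daily ranges of 0.93, 1.26 and 1.22 against CORT effects of 8.86, 7.19 and 6.97. For *Rgs16*, *Lpin1*, *Egr1* and *Per1* the ranges were 6.53, 6.64, 5.50 and 4.79 against effects of 6.58, 4.51, 4.28 and 2.04. At ZT12 *Lcn2* and *Saa1* differed from ZT16 by -0.02 and 0.14 in the series (log2), and *Tsc22d3* by -0.61, against a CORT effect of 1.48. For *Hsp90aa1*, *Fkbp4*, *Stip1* and *Insig1* the series differed by -1.79, -0.84, -0.92 and -1.23, against CORT effects of -1.33, -0.76, -0.89 and -1.28.

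**Figure D4:**
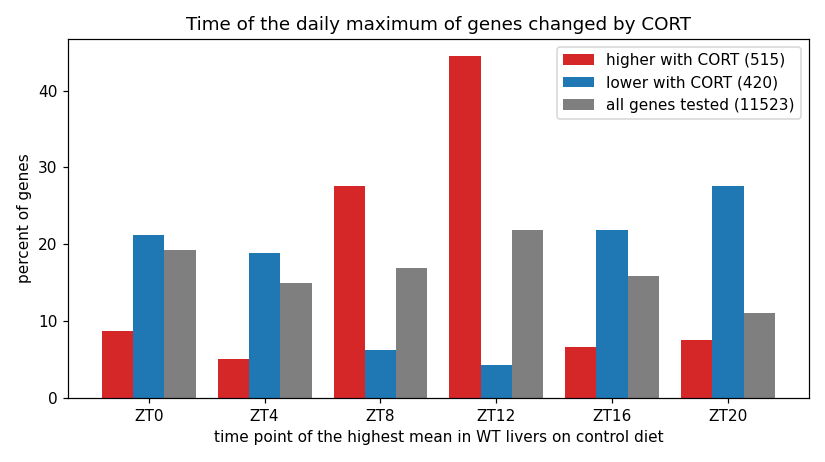
Percent of genes whose mean level in control-fed WT livers is highest at each time point, for the 515 genes higher with CORT (red), the 420 lower with CORT (blue) and all 11523 genes tested (grey).

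Promoter windows from 250 bases before to 50 after the RefSeq start were searched on both strands, from a RefSeq table on GRCm38.p6 that holds windows for 408 of the 515 rises, 321 of the 420 falls and 8986 of all genes tested. The GR hexamer AGAACA was present for 15.0% of the rises, 15.9% of the falls and 15.0% of all genes tested (21.3% of all 27025 genes with a window). By list it was present for 9 of 25 acute phase genes (36%) and 6 of 30 classical targets (20%). It was also present for 2 of 9 members of the metallothionein and zinc list and 1 of 21 of the chaperone list. The full palindrome, which is AGAACA, 3 bases and TGTTCT and so contains the hexamer on both strands, was present for 1 rise (0.245%), *Sgk1*, and 0 falls, against 0.0223% of genes tested and 0.0111% of all genes. The metal response element, TGCACNC or TGCGCNC, was present for 40.2% of the rises, 45.2% of the falls and 40.1% of genes tested (28.2% of all genes), and for 6 of 9 members of the metallothionein and zinc list. The heat shock element of GAA, 2 bases, TTC, 2 bases and GAA was present for 0 rises, 0.312% of the falls and 0.579% of genes tested (0.662% of all genes), and for 4 of 21 members of the chaperone list. The STAT element TTCNNNGAA was present for 7.60% of the rises, 7.17% of the falls and 8.30% of genes tested (9.55% of all genes), and for 7 of 25 acute phase genes (28.0%). A match only describes letters.

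Promoters are printed for the metallothioneins, which rose most and carry several metal response elements, and for *Sgk1*, the sole rise with the palindrome. Capitals mark the metal response elements in *Mt2* (4, from -223 to 5 relative to the RefSeq start, which can differ from GENCODE; chr8:94172368-94172667, plus strand), *Mt1* (3, from -23 to 21; chr8:94178839-94179138, plus strand) and the palindrome in *Sgk1* (at -189; chr10:21993640-21993939, plus strand). *Sgk1* has 6 such windows in the table, of which the window with the palindrome is shown.
Mt2: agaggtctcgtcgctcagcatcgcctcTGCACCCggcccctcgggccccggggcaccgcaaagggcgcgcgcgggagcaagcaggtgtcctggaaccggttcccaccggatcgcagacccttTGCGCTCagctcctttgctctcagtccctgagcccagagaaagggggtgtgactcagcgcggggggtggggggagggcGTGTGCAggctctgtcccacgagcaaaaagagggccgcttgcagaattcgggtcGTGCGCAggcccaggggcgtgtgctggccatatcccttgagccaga
Mt1: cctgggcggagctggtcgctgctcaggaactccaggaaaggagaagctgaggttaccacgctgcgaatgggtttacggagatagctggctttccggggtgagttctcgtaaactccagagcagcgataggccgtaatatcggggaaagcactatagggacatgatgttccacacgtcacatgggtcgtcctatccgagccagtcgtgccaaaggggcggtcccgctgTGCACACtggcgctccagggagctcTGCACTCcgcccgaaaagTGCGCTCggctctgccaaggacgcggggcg
Sgk1: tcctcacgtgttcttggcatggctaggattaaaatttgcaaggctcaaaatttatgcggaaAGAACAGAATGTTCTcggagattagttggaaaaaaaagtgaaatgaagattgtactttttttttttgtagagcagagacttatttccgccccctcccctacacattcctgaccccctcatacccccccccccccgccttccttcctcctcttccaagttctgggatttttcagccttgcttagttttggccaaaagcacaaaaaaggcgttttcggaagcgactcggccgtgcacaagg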

How the data were processed

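The authors quantified transcripts with Salmon and deposited expected counts per gene, not scaled to library size, and for the corticosterone experiment also variance-stabilized (log2) values made with DESeq2. Counts were rounded. Of 27654 genes, 27244 had a symbol by Ensembl ID (GENCODE M21). Each comparison was fitted on its own libraries in R 4.3.3 with edgeR 4.0.16 (TMM, filterByExpr at a minimum count of 10, quasi-likelihood F test) with Benjamini-Hochberg adjustment over all genes tested, and genes under 0.05 were called. The difference of the CORT and cal. res. effects was a contrast of group means over 12 libraries. Log2 CPM used a prior count of 2. SE is the log2 fold change divided by the root of F. DESeq2 1.42.0, limma 3.58.1 (voom and trend), RLE size factors, other filters, a fit without the 10 most abundant genes of each library, a replicate block and leaving out each library were alternatives. Named genes were the 12 largest rises and 12 largest falls among called genes with a mean of at least 5 CPM in a group and no overlap between groups, the leads of 22 gene lists with up to 6 called members or the 4 largest rises and falls of each, and the 5 genes with the widest opposite effects of CORT and cal. res. The experiment, the lists and this rule were chosen with earlier results of these data known, and some genes under the rule are not printed. No library of the corticosterone table was left out, and every count column was matched to a sample (columns not used, 0). The control columns of the variance-stabilized values were matched to their group only. Figures were drawn with matplotlib 3.10.9 in Python 3.11.15.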

Additional observations from a re-analysis of the deposited data

Results flagged for a closer look

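For genes under the naming rule, 56 sets of 4 values were examined, each a gene in the 4 control-fed WT or the 4 GR LKO livers. In 5 sets a liver lay far from the other 3, as the gap to its nearest neighbor divided by the range of the set. Chance gives about 1 in 20 independent sets, whereas these share the same livers. *Zfp746* had a ratio of 0.919 in WT, with liver 2 at 13.4 CPM and the others at 5.69 to 6.11 CPM. *Saa1* had a ratio of 0.895 in WT, with liver 4 at 134 CPM and the others at 23.9 to 28.6 CPM. *Saa2* had a ratio of 0.861 in GR LKO, with liver 2 at 1.59 CPM and the others at 0.694 to 0.783 CPM. *Dusp1* had a ratio of 0.859 in GR LKO, with liver 1 at 32.7 CPM and the others at 9.12 to 10.9 CPM. *Per1* had a ratio of 0.832 in GR LKO, with liver 1 at 47.1 CPM and the others at 27.7 to 30.2 CPM. The groups of 3 in the corticosterone experiment were too small for this comparison.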

How the results depend on the processing

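No called gene under the naming rule reversed its direction under any alternative run, while fold changes without a call crossed 0 (*Nr3c1*, -0.210 to 0.0253 with 1 liver left out). The CORT count of 935 was 856 to 1300 with DESeq2, RLE size factors, no filter, a minimum count of 50, limma-voom, limma on the deposited values and without the 17 most abundant genes, and 906 of the 935 genes were shared with DESeq2. Correlations across genes of deviations from the group means between CORT and ctrl. livers of the same replicate number were 0.0996, 0.0639 and -0.0118, and with replicate number as a block the count of CORT against control was 534. With 1 library left out it ran from 206 to 1008. The count for CORT against control, higher, was 317 with the block and ran from 135 to 522 with 1 library left out, and that for CORT against control, lower, was 217 and ran from 71 to 486. Each fit then compared 2 livers with 3. With 1 library left out the diet count ran from 4512 to 6471 and that of the difference from 2079 to 3229. DESeq2 gave 3361 for the difference. In GR LKO, DESeq2 called 564 genes (247 higher and 317 lower) and the block fit 101 (41 and 60), and leaving out a library gave 137 to 199, with 52 to 87 higher and 85 to 122 lower. Genes called with CORT and cal. res., same direction, numbered 259 with the block and 115 to 467 with 1 library left out, and those called with CORT and cal. res., opposite direction, 98 and 34 to 211. The rises lower in GR LKO numbered 146 with DESeq2 and 22 with the block, and ran from 32 to 58. The cause of these shifts was not tested. Of 132 called genes under the naming rule, 51 kept their call in all 14 alternatives, and the block ended 34 calls. Leaving out ctrl. liver 2 ended the most (76) and CORT liver 2 the fewest (14). Of 41 genes under the rule without a call, 10 were called in at least 1 alternative. Among the gene lists, the median of the metallothionein list was 0.00 and changed sign without the most abundant genes. The daily ranges, recomputed with RLE size factors and with each library left out, alternatives chosen after seeing the data, gave counts within 1.5 times those reported, and the time points nearest to the livers of the corticosterone experiment were the same with RLE size factors and without the called clock genes. The depth of the libraries sets 3 counts at 0.187 to 0.218 CPM, so that changes below that level were not detectable.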

Other observations

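The corticosterone experiment holds 3 livers per group at 1 labelled hour, so that the course of each response over the day was not measured. The diet comparison and the GR LKO comparison came from other libraries with depths of their own, and the batch of a comparison cannot be told apart from its treatment. The ctrl. livers resembled later hours of the time series, when food had been offered, and hour, feeding and hormone cannot be told apart. The controls of the diet comparison are titled AL, and the study describes free feeding until a last week of feeding by night. Counts per gene do not separate transcript forms. The labels name no vehicle for the ctrl. livers, so injection and hormone cannot be told apart. Hormone levels in the blood were not analysed here.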
